A study of Mus musculus with 8 samples.

Results

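The subunits of the interferon receptors and the Janus kinases are described here in mouse dendritic cells, which present antigen to T cells, grown from bone marrow and cultured overnight with a heat-inactivated Prevotella species. The genes were taken by name from the deposited count table: Ifnar1, Ifnar2, Ifngr1 and Ifngr2 for the receptors and Jak1, Jak2, Jak3 and Tyk2 for the kinases. All 8 were found among the 55376 genes of the table, and all 8 passed the filter on low counts that left 14382 genes. One group of 3 samples received P. heparinolytica (PH) and the other group of 3 received P. melaninogenica (PM). The samples carry the ids 1, 3 and 4 in each treatment. No untreated cells were analysed here, so each difference is between the bacteria and not against rest. The sources used here do not give strain, age or sex, nor whether an id is an animal or a culture. The p-values measure only the spread among these 6 samples, and some of that spread may be technical.

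Interferons signal through paired receptor chains that have no enzyme activity of their own. Type I interferons bind Ifnar1 and Ifnar2, which carry the kinases Tyk2 and Jak1, and interferon-gamma binds Ifngr1 and Ifngr2, which carry Jak1 and Jak2. The kinases phosphorylate STAT factors, which switch on interferon-stimulated genes through the interferon-stimulated response element (ISRE) and the gamma-activated site (GAS). Jak3 takes no part in interferon receptors and works with the common gamma chain of interleukin receptors.

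In these cells the receptor and kinase genes differed little between the bacteria, with estimates for PM at 89.4% (Jak3) to 98.9% (Ifngr2) of PH. Without the sample id as a block, none of the 8 passed an adjusted p of 0.05. Of all genes 2.34% did (1.64% lower and 0.702% higher with PM). In that fit each 95% interval held the level with PM between 77.1% and 115% of that with PH. With the sample id as a block, 2 of the 8, Jak2 and Jak3, were called lower with PM, where 15.3% of all genes were called (8.27% lower). Their blocked intervals were -0.25 to -0.045 and -0.27 to -0.050 on the log2 scale. Genes downstream were lower with PM over the same samples. Of 26 interferon target genes tested, 24 fell and 0 rose. Their median log2 fold change was -1.78, against 0.0095 over all genes tested and -0.040 over the 8 receptor and kinase genes. For 23 of the targets the whole interval lay below the lowest bound of any of the 8. The targets include genes whose fall was known from an earlier look at the same counts, so this contrast is a description. RNA of a cell mixture was measured, so fewer cells of a type and less RNA per cell cannot be told apart.

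The stretches before the transcription start were searched for the cores of these 2 elements. Of the 8 genes, 0 held the ISRE core (GAAA, any 2 bases, GAAA) on either strand in the 250 bases before the start (RefSeq, GRCm38.p6), and 1 held the GAS core TTCNNNGAA, which is its own reverse complement. Among 18 of the 26 targets found in the same RefSeq table, 11 (61.1%) held the ISRE core and 4 (22.2%) the GAS core. Over all 27025 genes of that table the shares were 3.46% and 8.13%. The 8 members, at 0% and 12.5%, lie near these shares, so the search shows no trait of their own. The targets were listed as interferon-responsive genes, so the contrast with them is a description. A match is a description of letters and not a bound site, and a missing match says only that these letters are not in this window. The sequences, 5′ to 3′ on the gene's strand, are those of Jak2 and Jak3, the members with the largest differences, Ifnar2, the member with a match, and the target Isg15 for contrast. Capitals mark the motif matches. They lie at chr19:29251553-29251802 (plus strand), chr8:71676133-71676382 (plus), chr16:91372533-91372782 (plus) and chr4:156200819-156201068 (minus).
Jak2: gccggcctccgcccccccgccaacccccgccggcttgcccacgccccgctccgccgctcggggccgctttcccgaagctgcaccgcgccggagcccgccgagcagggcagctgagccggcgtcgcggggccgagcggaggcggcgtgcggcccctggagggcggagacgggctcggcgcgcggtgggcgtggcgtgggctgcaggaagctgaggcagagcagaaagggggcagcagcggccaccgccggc
Jak3: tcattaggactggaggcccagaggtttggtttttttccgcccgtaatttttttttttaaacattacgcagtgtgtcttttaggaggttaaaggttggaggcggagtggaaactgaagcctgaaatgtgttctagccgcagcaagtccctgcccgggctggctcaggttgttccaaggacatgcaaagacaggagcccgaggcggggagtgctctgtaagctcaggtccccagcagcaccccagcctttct
Ifnar2: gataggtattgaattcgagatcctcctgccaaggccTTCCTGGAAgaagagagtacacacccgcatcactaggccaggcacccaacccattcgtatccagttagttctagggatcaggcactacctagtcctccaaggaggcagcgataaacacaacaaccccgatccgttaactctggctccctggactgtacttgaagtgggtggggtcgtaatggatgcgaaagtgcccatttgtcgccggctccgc
Isg15: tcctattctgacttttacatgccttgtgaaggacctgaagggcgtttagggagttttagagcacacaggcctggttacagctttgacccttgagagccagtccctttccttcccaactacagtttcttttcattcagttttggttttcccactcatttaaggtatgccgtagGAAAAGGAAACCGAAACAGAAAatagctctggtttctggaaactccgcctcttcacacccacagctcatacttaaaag
The GAS match of Ifnar2 lies at -214 to -206 from the start. Isg15, a ubiquitin-like modifier, has 3 overlapping ISRE matches between -78 and -57. The Jak2 stretch holds 80.8% G and C, the highest of the 8, and that of Jak3 52.4%, the lowest.

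Totals ranged from 11624367 counts in PH id 3 to 40233148 in PH id 4. Of the 14382 genes tested, 337 (2.34%) passed, with 1.64% lower and 0.702% higher with PM, and 2197 (15.3%) passed with the sample id as a block. The columns of PM id 1 and PH id 3 match libraries from both sequencing runs by name, and the sources used here do not say how the runs were joined. Dendritic cell markers were present in all samples: the 12 genes of that list summed to 9543 to 11626 CPM (counts scaled to library size, with TMM factors) with PH and 9354 to 11219 CPM with PM. The antigen presentation genes Cd74, H2-Aa and H2-Ab1 and the chemokine receptor gene Ccr7 held most of the sum. The other 8 summed to 662 to 685 CPM with PH and 591 to 647 CPM with PM, which did not overlap. Of 10 tested, 0 passed without the block, and with it 1 rose, Clec9a, and 1 fell, Irf4. Clec9a was at 0.328 to 0.572 CPM with PH and 0.866 to 1.43 CPM with PM (adjusted p = 0.0974 by edgeR, 0.00412 with the block). Irf4 was at 328 to 335 CPM with PH and 252 to 287 CPM with PM (adjusted p = 0.0961 by edgeR, 5.8e-05 with the block). Clec9a and Xcr1 mark cross-presenting dendritic cells, and Xcr1 was at 0.154 to 0.433 CPM. The gene Cd209a had no count in any sample, which allows up to 0.259 CPM in the shallowest one, by counting error alone.

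Levels per length placed Jak2 far above the other members (TPM, counts divided by the exon length in the deposited table and scaled to the same sum in each sample). Jak2 was at 357 to 469 TPM over the 6 samples, above 97.6% of the genes tested. Jak1 followed at 121 to 132 TPM. Neither range overlapped that of the next gene. Ifngr2 (93.1 to 99.9 TPM) and Tyk2 (76.7 to 101 TPM) could not be separated beyond their spread, since Ifngr2 was the higher in 4 of 6 samples. The ranges of Tyk2 and Ifnar1 (71.1 to 81.4 TPM) overlapped too, as did those of Ifnar1 and Ifngr1 (63.8 to 74.2 TPM). Ifnar2 came next at 48.0 to 59.1 TPM, and Jak3 was lowest at 34.9 to 47.5 TPM, still above 75.9% of the genes tested.

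**Figure D1:**
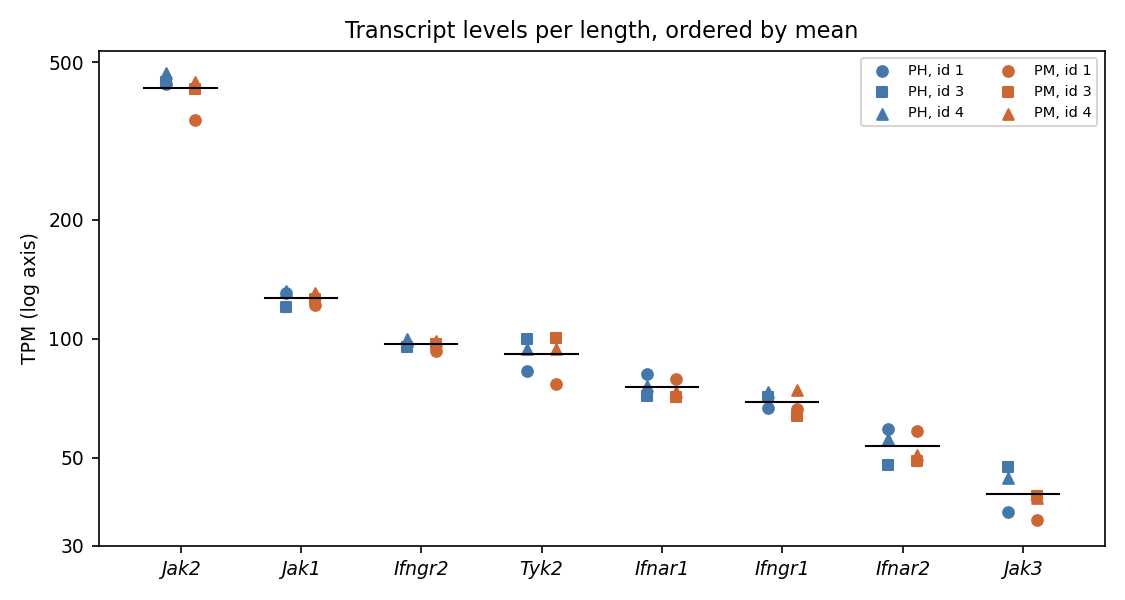
Level of each gene per length (TPM, log axis) in each of the 6 samples, ordered by the mean over samples (black line), with colour for the bacterium and symbol for the sample id. Jak2 stands at 357 to 469 TPM, apart from all others, and Jak3 is the lowest at 34.9 to 47.5 TPM.

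The ratio of the 2 chains of each receptor varied little between samples. The ratio of Ifnar1 to Ifnar2 in TPM was 1.41 ± 0.0728 with PH and 1.41 ± 0.0511 with PM (SD, n = 3). That of Ifngr2 to Ifngr1 was 1.38 ± 0.0595 with PH and 1.42 ± 0.0935 with PM. Among the Janus kinases, Jak2 made up 63.2% ± 0.701 of their summed TPM with PH and 61.6% ± 1.11 with PM, Jak1 17.9% ± 1.00 and 19.1% ± 1.35, and Jak3 5.99% ± 0.687 and 5.76% ± 0.161. Tyk2 made up 12.9% ± 1.01 with PH and 13.6% on average with PM, where the highest sample was at 14.5%. The values of the treatments overlapped for each of these ratios and shares. Within the ids, the share of Jak2 was lower with PM in 3 of 3, and the shares of Jak1 and Tyk2 were higher in 3 of 3. These shares were not tested.

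Ifnar1 is the receptor chain that docks Tyk2. Its level was 146, 128 and 133 CPM in PH ids 1, 3 and 4, and 144, 125 and 128 CPM in the matching PM samples. Id 1 was high with both bacteria and the treatments overlapped. The log2 fold change, PM over PH, was -0.037 ± 0.077 (SE, 95% interval -0.21 to 0.14, adjusted p = 0.896 by edgeR's quasi-likelihood test with Benjamini-Hochberg adjustment over all genes). Ifnar2, the high-affinity chain that docks Jak1, had 86.1, 69.6 and 78.9 CPM in the PH samples and 86.3, 70.3 and 72.2 CPM in the PM samples. Here too id 1 was high with both bacteria, and the log2 fold change was -0.043 ± 0.10 (interval -0.27 to 0.19, adjusted p = 0.908 by edgeR). Ifnar2 is also known to give rise to a soluble form, which a count per gene does not separate from the membrane form.

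Ifngr1 is the chain that binds interferon-gamma and docks Jak1. It was at 64.7, 68.9 and 69.1 CPM in PH ids 1, 3 and 4 and at 65.3, 60.6 and 70.1 CPM with PM, so that only id 3 differed by more than a few percent. Its log2 fold change was -0.048 ± 0.069 (interval -0.20 to 0.11, adjusted p = 0.833 by edgeR). Ifngr2, the signal-transducing chain that docks Jak2, had the narrowest spread of the 8, with 165, 161 and 166 CPM with PH and 161, 161 and 164 CPM with PM. The log2 fold change was -0.015 ± 0.054 (interval -0.14 to 0.11, adjusted p = 0.941 by edgeR).

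Ifnar2, Ifnar1 and Ifngr2 lie beside one another with Il10rb, a chain of the interleukin-10 receptor, in 193 kb of chromosome 16, from 91372783 to 91565623 on the plus strand (GRCm38). Il10rb had 75.2, 67.5 and 66.4 CPM in the PH samples and 83.1, 72.8 and 70.1 CPM in the PM samples, higher with PM in each id. Its log2 fold change was 0.11 ± 0.081 and did not pass in either fit (adjusted p = 0.640 by edgeR, 0.178 with the block). Exons of Ifnar2 share 315 bases with Gm21970, which had no count in any sample. Ifngr1 lies on chromosome 10 (19591949 to 19610229, plus strand).

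**Figure D2:**
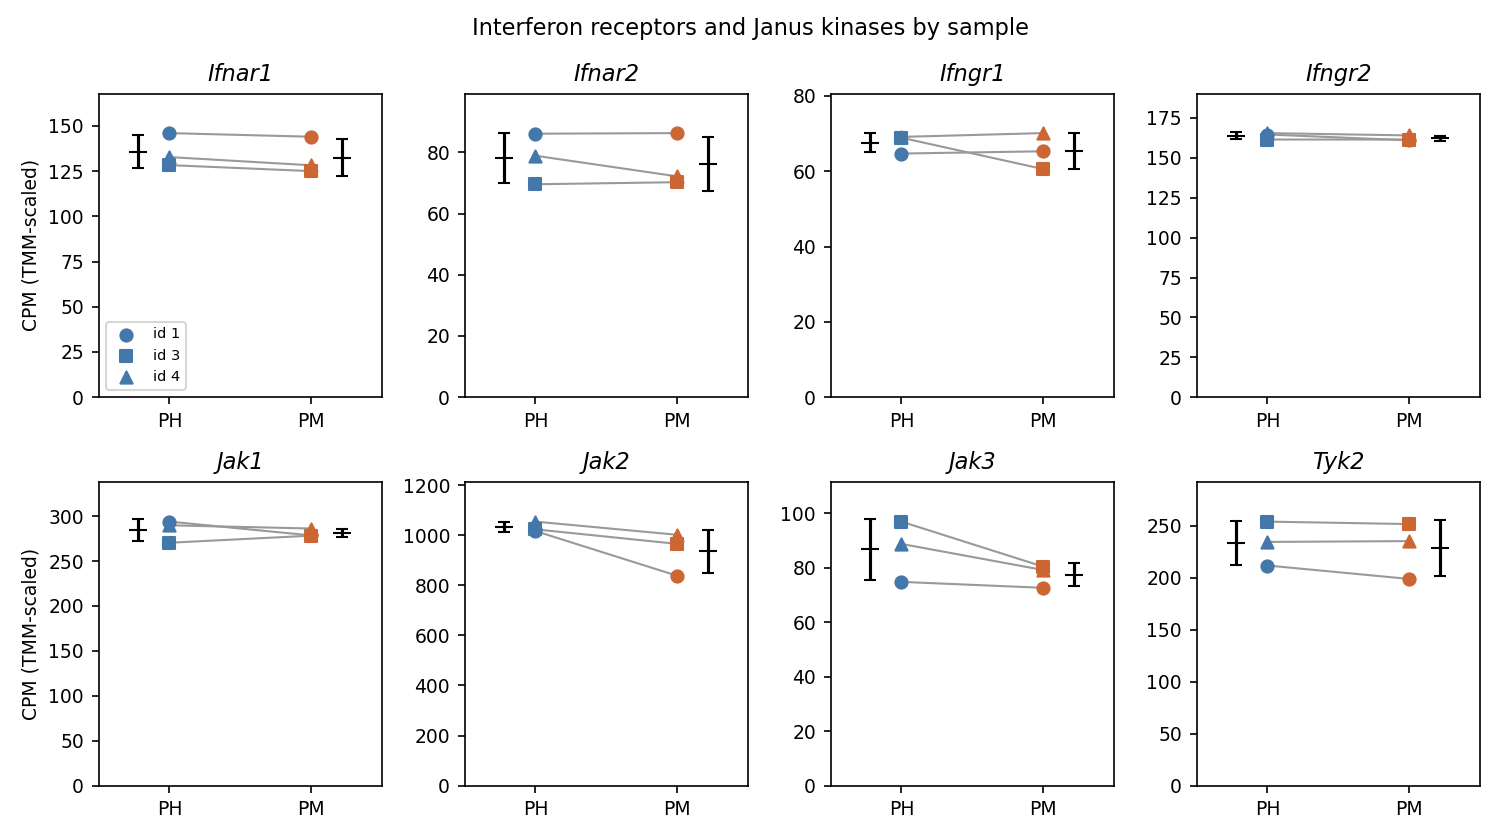
Level of each gene in CPM, with the 3 PH samples left and the 3 PM samples right, lines joining samples of the same id, and black bars for the mean ± SD of 3 samples. The receptor genes run level between the bacteria, Jak2 is lower with PM in each id (838 to 1001 against 1016 to 1054 CPM), and id 1 stands high for Ifnar1 and Ifnar2 and low for Tyk2 under both bacteria.

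Jak2, the kinase of the interferon-gamma receptor and of the GM-CSF receptor, showed one of the largest differences among the 8. It lies on chromosome 19 (29251828 to 29313080, plus strand). The level was 1016, 1023 and 1054 CPM in PH ids 1, 3 and 4 and 838, 965 and 1001 CPM with PM. Every PM sample lay below every PH sample, which held for 1 of the 8 genes and, in this direction, for 9.28% of all genes tested. PM id 1, whose column matches libraries from both sequencing runs, was the lowest by far. The part of the runs in this value was not tested. The log2 fold change was -0.14 ± 0.083 (interval -0.33 to 0.048), a level with PM at 90.7% of that with PH, and did not pass (adjusted p = 0.534 by edgeR). With the sample id as a block it was -0.15 ± 0.049 and passed (adjusted p = 0.0421 by edgeR), but not in DESeq2 with the block (0.0611). In the blocked edgeR fit the call was lost without id 1 (log2 fold change -0.089, adjusted p = 0.290), and without id 3, where the fold change was larger (-0.18, adjusted p = 0.0777). It held without id 4 (-0.18, adjusted p = 0.0398).

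Jak3 showed a difference of similar size. This kinase serves receptors of interleukins such as IL-2, IL-4, IL-7 and IL-15, and its gene lies on chromosome 8 (71676296 to 71690575, plus strand). It was at 74.8, 97.0 and 88.8 CPM in PH ids 1, 3 and 4 and at 72.7, 80.5 and 79.2 CPM with PM. Each PM sample was below the PH sample of its id, and id 1 was low with both bacteria, so that the treatments overlapped. The log2 fold change was -0.16 ± 0.094 (interval -0.37 to 0.052, adjusted p = 0.528 by edgeR). With the block it was -0.16 ± 0.053 and passed (adjusted p = 0.0398 by edgeR), and DESeq2 with the block gave 0.175. The blocked call was lost without id 3 (log2 fold change -0.11, adjusted p = 0.370 by edgeR) or id 4 (-0.15, 0.211), and it held with a larger value without id 1 (-0.22, 3.8e-04). PH id 3, whose column also matches libraries from both sequencing runs, was the shallowest sample. The unblocked value was -0.087 without PH id 3 and -0.27 without PH id 1, with no call in either fit. The part of the runs in these values was not tested. Exons of Jak3 share 404 bases, 9.05% of their length, with Insl3, which had 8 to 56 counts per sample against 1123 to 3568 for Jak3.

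Some markers of other cells differed between the same groups. The 7 NK cell markers summed to 17.7 to 20.2 CPM with PH and 10.5 to 13.2 CPM with PM, of which the protease gene Gzmb held most, at 8.62 to 17.1 CPM. Without Gzmb the other 6 summed to 2.38 to 3.37 CPM with PH and 1.67 to 3.41 CPM with PM, which overlap. Of 3 NK markers tested 1 passed, Gzmb, while Ncr1 was at 0.0478 to 0.123 CPM and Klra8 had 1 count in all. The 7 monocyte markers summed to 267 to 365 CPM with PH and 207 to 279 CPM with PM. Ly6c2 was the largest part of that sum, at 93.0 to 216 CPM. Of the 7, 6 had negative estimates and Vcan a positive one (0.091 on the log2 scale). Without the block 1 fell, Cx3cr1, and with it 5 fell, where 1.64% and 8.27% of all genes did. The 10 neutrophil markers summed to 489 to 609 CPM with PH and 373 to 523 CPM with PM. S100a8 and S100a9 held most of the neutrophil sum. Without them it was 82.5 to 110.4 CPM with PH and 71.6 to 103.5 with PM, and 4 of the 10 markers, Ngp, Ltf, Mpo and Elane, had positive estimates. Of the 10, 1 fell without the block, Csf3r, and 4 fell with it, where 1.64% and 8.27% of all genes did. T cell markers (10 genes) summed to 35.0 to 45.7 CPM with PH and 45.7 to 53.3 CPM with PM. Without Cd28, the marker that rose, the other 9 summed to 28.1 to 39.6 and 31.5 to 38.4 CPM, and 6 of the 10 had negative estimates. The 7 plasmacytoid dendritic cell markers summed to 304 to 326 CPM with PH and 215 to 227 with PM. Bst2, itself interferon-inducible, held most of that sum (173 to 278 CPM) and was the 1 of 5 tested that passed. With the block 2 fell. Of the 5, 4 had negative estimates and Pacsin1 a positive one (0.33 on the log2 scale). Siglech had 1 count in all and Klk1 had 6. The 6 mast cell and basophil markers summed to 106 to 120 CPM with PH and 94.0 to 105 CPM with PM. Hdc, at 21.8 to 44.4 CPM, was the 1 of 6 that passed (-0.73 on the log2 scale, adjusted p = 0.00959 by edgeR), where 1.64% of all genes fell. Of the 6, only 2 had negative estimates. No marker of these lists was at 0 in all samples. The part of these lists and of the dendritic cell markers in the values of Jak2 and Jak3 was not tested.

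Jak1, which serves both interferon receptors and many interleukin receptors, was at 294, 270.4 and 289.8 CPM in PH ids 1, 3 and 4 and at 279, 278 and 286 CPM with PM. The treatments overlapped and the log2 fold change was -0.019 ± 0.062 (interval -0.16 to 0.12, adjusted p = 0.935 by edgeR). The gene lies on chromosome 4 (101152367 to 101265282, minus strand). Tyk2, the kinase of Ifnar1 and of the IL-12 and IL-23 receptors, had 212, 254 and 234 CPM in the PH samples and 199, 252 and 235 CPM in the PM samples. It varied more between ids than between bacteria, with a log2 fold change of -0.029 ± 0.10 (interval -0.26 to 0.20, adjusted p = 0.941 by edgeR). Tyk2 lies on chromosome 9 (21104069 to 21131243, minus strand).

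Over the 8 genes, 0 passed without the block in edgeR, against 2.34% of all genes (1.64% lower, 0.702% higher), and 0 passed in DESeq2. In the same edgeR fit 0 of the 8 had an unadjusted p under 0.05, against 1890 of the 14382 genes tested. With the block 2 passed, Jak2 and Jak3, both lower with PM, where 15.3% of all genes passed and 8.27% did so with lower values. Within the ids, Ifnar1, Ifngr2, Jak2 and Jak3 were lower with PM in 3 of 3, as 22.0% of all genes were. Ifngr2 differed there by at most 0.032 on the log2 scale, and for Ifnar1 and Ifngr2 the blocked fit also gave no call (adjusted p = 0.696 and 0.880 by edgeR). The blocked intervals of the 4 receptor genes lay between -0.16 and 0.080.

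**Figure D3:**
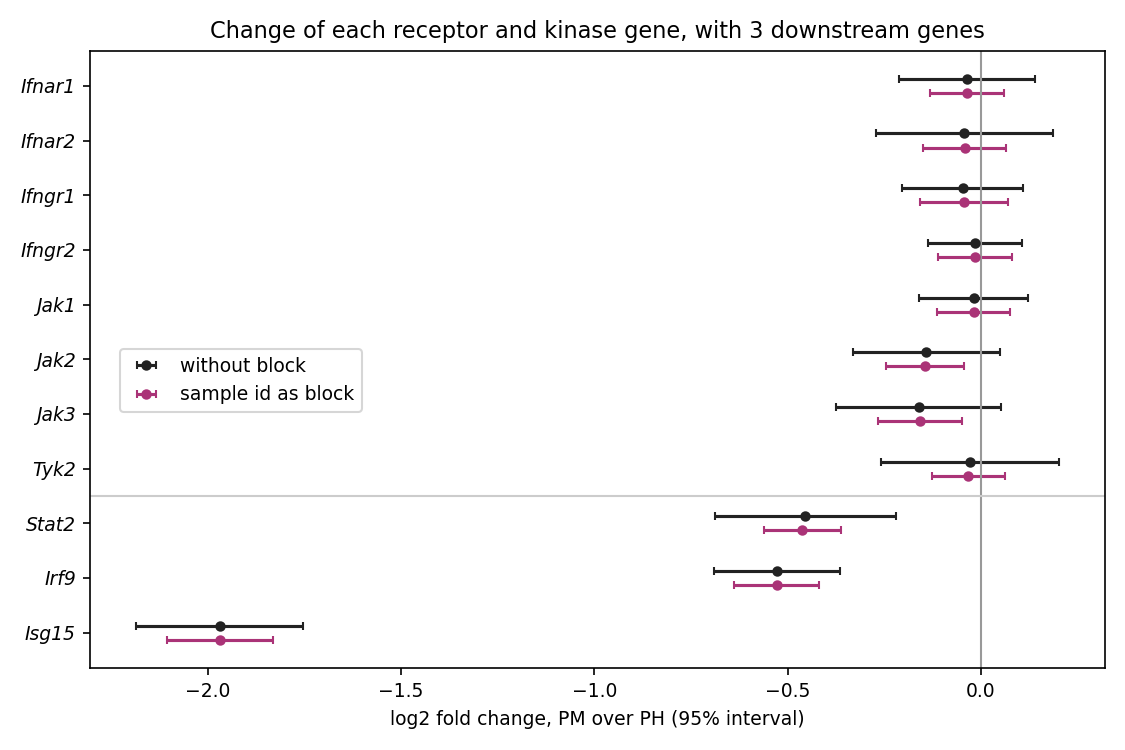
Log2 fold change, PM over PH, with its 95% interval for the 8 genes and for Stat2, Irf9 and Isg15 below the line, without the block (black) and with the sample id as a block (purple). Without the block all 8 intervals include 0, and with it those of Jak2 (-0.25 to -0.045) and Jak3 (-0.27 to -0.050) do not.

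For some members the levels differed more between sample ids than between bacteria. Tyk2 was 0.17 below its mean log2 level in id 1 and 0.14 above it in id 3, while Ifnar2 was 0.16 above in id 1 and 0.14 below in id 3. Ifnar1 (0.12 above in id 1) went with Ifnar2, and Jak3 (0.15 below in id 1, 0.11 above in id 3) with Tyk2. A test of the id terms in the blocked edgeR fit, added after these values were seen, passed for Tyk2 (adjusted p = 6.8e-04), Ifnar2 (0.00332), Jak3 (0.0133) and Ifnar1 (0.0319). Over all genes 18.9% passed. Jak2 (0.160), Ifngr1 (0.384), Jak1 (0.641) and Ifngr2 (0.939) did not. Tyk2 passed in each alternative run, and Ifnar2 in each but the one without PH id 3 (0.0732), which left Tyk2 as the only call. Jak3 lost its call without PH id 1 (0.161) or PH id 3 (0.163) and in a DESeq2 likelihood ratio test (0.0991). Ifnar1 kept its call only without PH id 1 (0.0169) and lost it in the other alternatives (0.0696 to 0.176). Jak2 passed without PH id 1 (0.00801).

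Markers differed between the ids as well. The 8 macrophage markers summed to 969 CPM in PH id 1 and 1076 in PM id 1, against 688 to 801 CPM in ids 3 and 4. Adgre1 and Cd68 held most of that sum, and C1qa, C1qb and C1qc reached at most 0.764 CPM. The 8 B cell markers summed to 19.6 and 23.1 CPM in id 1 and 10.5 to 12.8 CPM in the others. The sum of the dendritic cell markers, mostly Cd74, Ccr7, H2-Aa and H2-Ab1, was lowest in id 1, at 9543 and 9354 CPM, against 10564 to 11626 CPM. Itgax, of the same list, went the other way and was highest in id 1 within each treatment (165 CPM with PH and 178 with PM). The part of these differences in the levels of the receptors and kinases was not tested.

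Interferon genes, listed here as ligands, had few counts. Of 21 listed, 15 had no count in any sample and 1, Ifng, passed the filter. The 15 include Ifnl2 and Ifnl3, which do not bind the receptors described here. The 14 interferon-alpha genes, Ifnab included, had 2 counts in all, and reads of such near-identical genes could be lost in counting. Ifnb1 had 0 to 4 counts per sample. Ifng was at 0.575, 1.04 and 0.946 CPM in PH ids 1, 3 and 4 and at 0.143, 0.333 and 0.462 CPM with PM, which is 3 to 38 counts. The PM samples all lay below the PH samples, and the difference of -1.30 ± 0.40 on the log2 scale passed with the block (adjusted p = 0.00753 by edgeR) but not without it (0.182). The blocked call was lost without id 3 (0.0513), DESeq2 gave no adjusted p for it with the block, and without the block it passed only with no low-count filter (0.0368). The cells were harvested after overnight culture, and earlier times were not analysed here.

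STAT factors and Irf9, a DNA-binding partner of Stat2, had negative estimates for 7 of 8 tested genes, against 6846 of all 14382. Of the 8, 2 fell and 0 rose, where 1.64% of all genes fell, and the list's median was -0.13 on the log2 scale. With the block 4 fell, where 8.27% of all genes did. Irf9 averaged 97.3 ± 0.415 CPM over the PH samples and 67.4 ± 6.08 over the PM samples (SD, n = 3), a change of -0.53 ± 0.072 (adjusted p = 0.00708 by edgeR). Stat2, at 149.7, 174 and 168 CPM in PH ids 1, 3 and 4 and 102, 134 and 123 in the PM samples, had -0.45 ± 0.10 (adjusted p = 0.0646, or 8.8e-09 with the block, by edgeR). Without the block it passed in 3 of 12 fits: in DESeq2, with no low-count filter and without PM id 1. Stat5a (-0.16 ± 0.11, adjusted p = 0.620, or 0.0157 with the block) passed in 0 of these 12. Irf9 and Stat2 are themselves interferon-inducible.

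Among inhibitors of receptor and kinase signalling, calls without the block were few and depended on the fit. Of 19 tested, 0 passed in edgeR, where 2.34% of all genes did. An unadjusted p under 0.05 in that fit was found for 6 of the 19, against 1890 of the 14382 genes tested. In DESeq2 1 passed, in edgeR with no low-count filter 2, and in edgeR without PM id 1 3. The list had a median log2 fold change of -0.12. With the block 7 fell and 1 rose, where 15.3% of all genes were called and 8.27% fell. Usp18, which blocks Ifnar2, averaged 55.5 ± 5.73 CPM over the PH and 36.8 ± 7.59 over the PM samples (log2 fold change -0.58 ± 0.14, adjusted p = 0.0879, or 9.4e-09 with the block, by edgeR). Socs3, a kinase inhibitor, was at 540.0, 396 and 429 CPM in PH ids 1, 3 and 4 and at 433, 265 and 265 CPM with PM, where the PM sample of id 1 overlapped the PH range. Its change of -0.50 ± 0.20 had adjusted p = 0.311, or 4.5e-08 with the block. Socs1, which inhibits the Janus kinases directly, had -0.29 ± 0.093 (adjusted p = 0.194, or 5.4e-04 with the block). Fbxw11, a ubiquitin ligase subunit, and the phosphatase gene Ptpn1 had -0.21 each, and the adaptor gene Sh2b3 had 0.22, and these 3 passed with the block and in 0 of the 12 fits without it. Without the block, Usp18 passed in DESeq2, with no low-count filter and without PM id 1, Socs1 in the latter pair, and Socs3 without PM id 1.

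Other receptors that use Janus kinases moved both ways. Of 29 tested, 1 rose and 2 fell (median -0.069 on the log2 scale), where 2.34% of all genes were called. With the block 6 rose and 6 fell, where 15.3% of all genes were called. Il15ra, which presents IL-15, averaged 58.7 ± 1.91 CPM over the PH and 42.7 ± 4.76 over the PM samples (log2 fold change -0.45 ± 0.085, adjusted p = 0.0288 by edgeR). Csf3r, the G-CSF receptor and also 1 of the neutrophil markers above, had -0.96 ± 0.086 (adjusted p = 9.7e-04) and Il7r, the IL-7 receptor, 0.39 ± 0.068 (0.0206). Of the 12 fits without the block, Csf3r passed in 12, Il7r in 8 and Il15ra in 6. Il2rg, the common gamma chain that pairs with Jak3, averaged 86.4 ± 4.35 CPM over the PH and 87.9 ± 6.46 over the PM samples and did not pass with either fit (adjusted p = 0.930, or 0.821 with the block). Lifr (-0.70), Il2ra (-0.45) and Il11ra1 (0.42) passed in edgeR with the block and not without it. Il2ra and Il11ra1 also passed without the block in DESeq2 and with no low-count filter. The count was 1 without PH id 3, PH id 4, PM id 3 or PM id 4. Of 5 tested chains of the receptor family that includes the interferon receptors, 0 passed in edgeR and in DESeq2. An unadjusted p under 0.05 in edgeR was found for 1 of the 5, against 1890 of the 14382 genes tested. With the block 2 fell, Il10ra (-0.22) and the tissue factor gene F3 (-0.61).

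**Figure D4:**
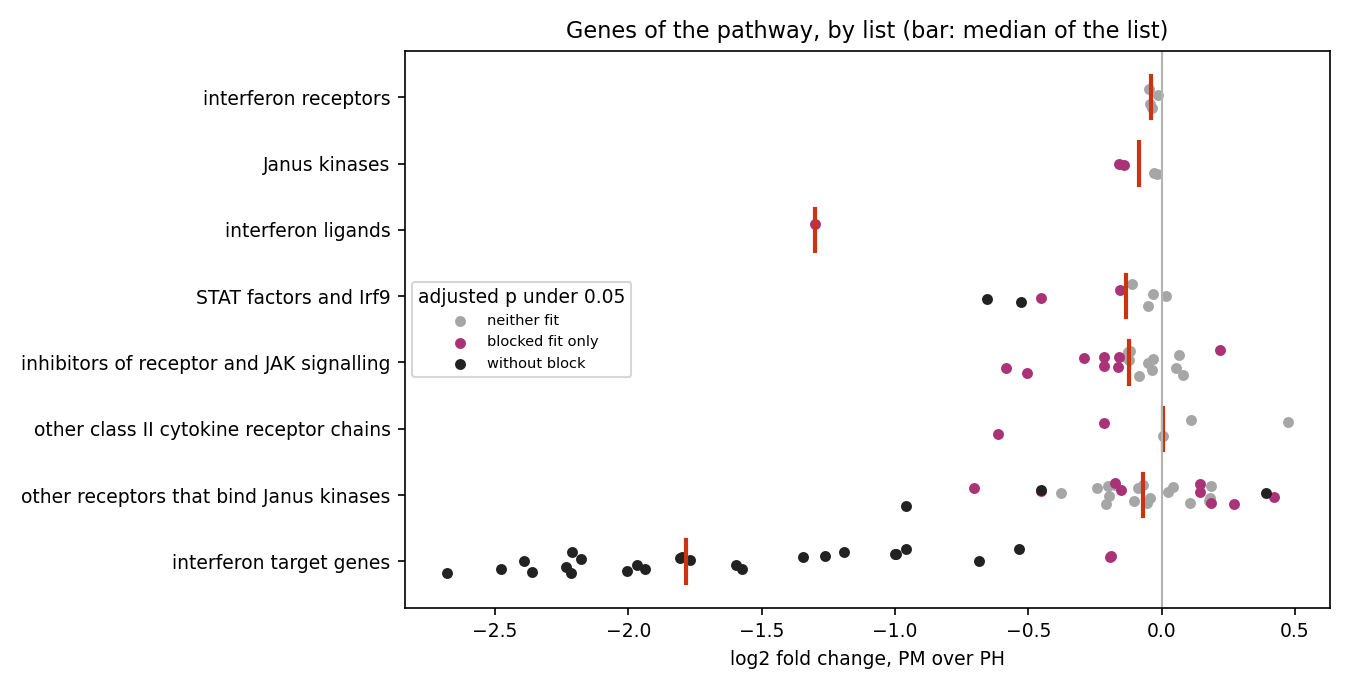
Log2 fold change, PM over PH, of each tested gene of the pathway by list, with black points for genes that passed in edgeR without the block, purple for those that passed with the block only, grey for neither, and a red bar at the median of each list. The receptor and kinase genes lie between -0.16 and -0.015, while the interferon targets reach -2.68.

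Among the interferon targets the values ran from -2.68 for Rtp4 to -0.19. Isg15, whose promoter is printed above, was at 51.7, 47.1 and 55.4 CPM in PH ids 1, 3 and 4 and at 14.3, 11.8 and 13.4 CPM with PM. The groups did not overlap, and the log2 fold change was -1.97 ± 0.095 (adjusted p = 6.6e-05 by edgeR). Mx1 (-0.19 ± 0.099, adjusted p = 0.457) and Ciita (-0.19 ± 0.11, 0.526) were the 2 of the 26 that did not pass without the block. These targets include genes whose fall was known from an earlier look at the same counts, so their count is a description.

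Profiles over the 6 samples that were most like those of the members were found by the root mean square difference of log2 CPM, each gene centred on its own mean, among 10050 genes with a mean of at least 5 CPM. Nearest to Jak2 was Ccng1 (0.0069), to Tyk2 Dnajb2 (0.0084), to Jak1 Serinc1 (0.011) and to Ifngr2 Stk38 (0.011). Nearest to Ifnar1 was Il1r1 (0.015), to Ifngr1 Nipsnap3b (0.018), to Ifnar2 Mob3c (0.020) and to Jak3 Arid5a (0.024). Among the members themselves the closest profiles were those of Ifngr2 and Jak1 (0.028) and of Ifnar1 and Ifnar2 (0.052). The likeness is a description over the 6 samples.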

How the data were processed

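RNA-seq read counts of 3 PH and 3 PM samples were analysed. The authors deposited whole-number counts per gene without normalization, with exon coordinates and lengths per gene in the same table. The tools named, per the submitters' processing notes, include featureCounts 1.6.4, STAR 2.5.3a and Trimmomatic, and the build is GRCm38. The sources used here do not give the strand setting, the annotation release or how multi-mapping reads were handled. Per the labels, 8 libraries were made, and 2 of the 6 count columns match 2 libraries each. Each column was used as 1 sample.

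Genes were filtered with filterByExpr (minimum count 10) and compared by quasi-likelihood (glmQLFit, robust, and glmQLFTest of edgeR 4.0.16, under R 4.3.3) after TMM scaling, PM against PH with no covariate, with Benjamini-Hochberg adjustment over 14382 genes and a threshold of 0.05. Standard errors come from the F value, and 95% intervals from the total degrees of freedom of the test. Total counts of 11624367 to 40233148 per sample set the precision. A floor for a count of 0 is 3 counts and covers counting error only. The members, lists and tests were chosen with earlier results of these data known. Genes named beyond the members passed in either fit (up to 6 a list by fold change), share a receptor or locus with a member, or have the nearest profile to one.

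Ids are shared between the treatments. Deviations from the treatment means correlated at 0.44 (id 1), 0.32 (id 3) and 0.24 (id 4) between samples of the same id, and at -0.35 to 0.066 between different ids. Each same-id correlation exceeded 0.1, so ids count as pairs here, on the evidence of the counts and not of the labels. The main fit leaves this pairing out, and the blocked fit given beside it uses the pairing. Alternatives were the sample id as a block, DESeq2 1.42.0, other scalings and filters, and leaving out samples. Promoters came from RefSeq (GRCm38.p6). All 8 members matched by symbol. One further gene of the pathway lists is not reported here by name.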

Additional observations from a re-analysis of the deposited data

How the results depend on the processing

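Without the block, 0 of the 8 receptor and kinase genes passed in any of the 12 fits, and no member changed its call or reversed a called direction in an alternative other than the blocked ones. The replicate block moved the count of members to 2, or 0 to 1 when an id was also left out (1 without id 1, 0 without id 3, 1 without id 4), and DESeq2 with the block gave 0. Under the block the counts over all genes were 1007 higher and 1190 lower against 101 and 236, or 644, 696 and 868 higher and 833, 936 and 1277 lower, in ascending order, without 1 id. DESeq2 gave 202 higher and 375 lower, DESeq2 with the block 462 and 731, and no low-count filter 349 and 497. Leaving out 1 sample without the block gave 26 to 111 higher and 107 to 306 lower.

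Pathway lists moved mainly with the block. Ligands went from 0 to 1 (0 to 1 without 1 id, and 1 with no low-count filter), STAT factors and Irf9 from 2 to 4 (3 to 4 without 1 id, 4 in DESeq2 with the block, and 3 without the block in DESeq2, with no low-count filter or without PM id 1), and the inhibitors from 0 to 8 (5 to 8 without 1 id, 6 in DESeq2 with the block, 1 in DESeq2, 2 with no low-count filter, and 0 to 3 without 1 sample, the 3 being without PM id 1). The class II receptor chains went from 0 to 2 (1 to 2 without 1 id, 1 in DESeq2 with the block) and the other receptors from 3 to 12 (8 to 12 without 1 id, 9 in DESeq2 with the block, 6 in DESeq2 or with no low-count filter, and 1 to 3 without 1 sample). The targets stayed within 1.5 times of 24. The cause was not tested. The order of levels changed for 4 members when CPM with no length replaced TPM, since length is left out there, and for 0 members without any 1 sample. The test between ids gave 4 members, 2 in DESeq2 and 1 to 4 without 1 sample. Each member had 798 to 42358 counts in a sample, and 3 samples a group limit the intervals.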
